A study of Homo sapiens with 16 samples.

Results

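AP-1 (activator protein 1) is a family of paired transcription factors, and its genes are described here with the other early response genes EGR1 and IER2. The set holds 10 genes: the Jun genes JUN, JUNB and JUND, the Fos genes FOS, FOSB, FOSL1 and FOSL2, the related factor ATF3, the zinc finger factor EGR1 and the nuclear protein gene IER2. They are 10 of the 25221 genes counted, each matched by its symbol to a single row. The genes were chosen by name with their levels and their Ro differences in these counts already known. Their levels, the difference between the untreated lines and the response to Ro are therefore given as a description. Where fits across all genes were run, the number of these genes past the threshold is printed beside the share of all genes called, and nothing is read from it.

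Counts came from MOLM13 and K562, human leukemia lines treated in culture with Ro 08-2750 (Ro), a small molecule that blocks RNA binding by the MUSASHI proteins. MOLM13 is an acute myeloid leukemia line (FAB M5a, the monocytic class) that carries the MLL-AF9 fusion, and K562 is a BCR-ABL positive line of erythroid character that came from the blast crisis of chronic myeloid leukemia. Each line had 4 libraries labelled DMSO, the vehicle, and 4 labelled Ro, given for 4 h at 20 μM, numbered as pairs 1 to 4, which made 16 libraries in all. All cells were grown in the same serum-containing medium, each line stands for the cells of a single donor, and no serum starvation or restimulation is described.

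Jun proteins pair with each other or with Fos proteins through a leucine zipper, and the pair binds a short palindrome in DNA. Growth factors, serum and stress switch on FOS, EGR1 and IER2 within minutes through MAP kinases (ERK, JNK and p38) and the serum response factor, before any new protein is made. Their transcripts decay quickly, so a later sample reads a sustained level rather than the first burst. ATF3 is a stress-induced member of the wider family, and FOSL1 and FOSL2 follow FOS more slowly and persist longer.

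Total counts per library ranged from 3143129 to 43571060, and K562 DMSO libraries 2 and 4 were shallow, at 3143129 and 4383241. Levels are CPM, a gene's counts scaled to a common library total with TMM library sizes. The reads are 3′ tags, so CPM does not grow with transcript length and may be set side by side between genes. Marker genes matched the lines: 11 erythroid markers summed to between 1605 and 3014 CPM in K562 and between 16.3 and 38.2 in MOLM13, and 11 monocytic markers to between 584 and 691 CPM in MOLM13 and between 149 and 298 in K562. The monocytic marker FCGR1A was at 0 in all 16 libraries and the embryonic globin HBE1 was at 0 in K562. The globins HBE1 and HBG1 were at 0 in MOLM13, and 8 markers of lymphoid, stromal and epithelial cells summed to between 31.6 and 114 CPM in MOLM13 and between 88.5 and 153 in K562. In bulk RNA, fewer cells with a transcript and less of it per cell cannot be told apart.

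FOSB had 0 counts in all 16 libraries. A count of 0 allows up to 3 counts, or between 0.0670 and 0.872 CPM by library, a limit that covers counting error only. FOSB was not detected in either line at these depths, and how the counting treated its reads is not given in the sources used here. The other 9 genes passed the filter of at least 10 counts in at least 4 libraries in each comparison. FOS in K562 rested on the fewest reads, with 8 counts in the DMSO libraries of pairs 2 and 4 and 9 in the Ro library of pair 1.

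Each gene lies at its own locus in RefSeq's annotation of GRCh38.p14, and 4 of the 10 are on chromosome 19. By Entrez identifier, JUN (3725) is at chr1:58780791-58784047, JUNB (3726) at chr19:12791486-12793315 and JUND (3727) at chr19:18279694-18281622. Of the Fos genes, FOS (2353) is at chr14:75278828-75282230, FOSB (2354) at chr19:45467996-45475179, FOSL1 (8061) at chr11:65892049-65900545 and FOSL2 (2355) at chr2:28392858-28417317. ATF3 (467) is at chr1:212565407-212620777, EGR1 (1958) at chr5:138465479-138469303 and IER2 (9592) at chr19:13150411-13154911. The 250 bases before the start of a gene are shown for EGR1, JUN and ATF3, which hold motif matches in that window and whose Ro values are described below. They were read from RefSeq on the strand of the gene, 5′ to 3′, and end at the base before the start site. Capitals mark the motif matches: in EGR1 a site for EGR proteins and then both CArG boxes, the element of the serum response factor, and in JUN and ATF3 the ATF/CREB site. The windows are chr5:138465229-138465478 (plus strand), chr1:58784048-58784297 (minus strand) and chr1:212565157-212565406 (plus strand).
EGR1: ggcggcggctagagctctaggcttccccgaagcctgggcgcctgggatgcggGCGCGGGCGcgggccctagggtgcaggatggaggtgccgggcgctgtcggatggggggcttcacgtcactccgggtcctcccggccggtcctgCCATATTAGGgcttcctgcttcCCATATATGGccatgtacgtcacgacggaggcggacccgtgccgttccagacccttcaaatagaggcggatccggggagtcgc
JUN: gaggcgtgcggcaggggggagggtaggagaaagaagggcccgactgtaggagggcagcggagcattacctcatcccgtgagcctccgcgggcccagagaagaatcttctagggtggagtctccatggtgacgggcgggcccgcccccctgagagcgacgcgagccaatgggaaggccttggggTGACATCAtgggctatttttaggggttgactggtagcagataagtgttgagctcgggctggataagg
ATF3: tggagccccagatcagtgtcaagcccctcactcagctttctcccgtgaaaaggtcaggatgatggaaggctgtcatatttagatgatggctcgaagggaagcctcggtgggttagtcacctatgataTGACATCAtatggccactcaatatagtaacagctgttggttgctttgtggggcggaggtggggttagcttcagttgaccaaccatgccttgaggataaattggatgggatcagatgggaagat

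RefSeq windows were found for 9 of the 10 genes, 10 windows in all because ATF3 has a second start, and were searched on both strands for 4 motifs. No matches overlapped. The AP-1 site TGANTCA was in 0 of the 10 windows and in 6.57% of 35116 promoters of the same length. The ATF/CREB site TGACNTCA, which Jun pairs with ATF proteins also bind, was in 3 windows and in 6.87% of promoters: TGACATCA lay 67 to 60 bases before the start of JUN and 123 to 116 bases before ATF3, and TGACGTCA 200 to 193 bases before JUND. The EGR site GCGNGGGCG was in the EGR1 window alone of the 10, as GCGCGGGCG 198 to 190 bases before the start, and in 8.41% of promoters. The CArG box was likewise in the EGR1 window alone, with CCATATTAGG 105 to 96 and CCATATATGG 83 to 74 bases before the start, and in 1.16% of promoters. A match is a description of letters, and a window without one says nothing about binding.

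In untreated MOLM13, JUND was the highest of the 9 genes and 4 genes stood apart above the rest. JUND, a Jun protein made steadily in resting cells, had 409, 666, 659 and 822 CPM in DMSO libraries 1 to 4 (mean 639 ± 171, SD, n = 4). IER2 followed at 232 ± 172 CPM, JUNB at 113 ± 65.4 and FOSL2 at 97.5 ± 41.2, with libraries that overlapped from each gene to the next. The lowest FOSL2 library, at 55.2 CPM, was above the highest JUN library, at 17.4. Below that gap JUN (14.1 ± 4.83 CPM), FOSL1 (11.9 ± 2.46), ATF3 (11.4 ± 4.01), FOS (10.4 ± 11.2) and EGR1 (10.2 ± 13.4) overlapped in sequence, so their order is within the spread of libraries.

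In untreated K562, JUND was again first at 330.5 ± 178 CPM and overlapped IER2 at 214 ± 32.2. JUNB (67.4 ± 30.9 CPM) and JUN (49.3 ± 5.96) came next, overlapping each other but neither IER2 above nor EGR1 below. EGR1 (17.3 ± 9.24 CPM), FOSL1 (13.7 ± 2.28), FOSL2 (7.86 ± 4.15) and ATF3 (4.87 ± 1.45) formed a lower run in which each gene overlapped the next. FOS was last, at 1.59 ± 0.495 CPM, below every ATF3 library. FOS, the classical partner of JUN, was thus above 15.9% of the genes tested in K562 and above 44.1% in MOLM13, and JUND above 97.6% and 98.9%.

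**Figure D1:**
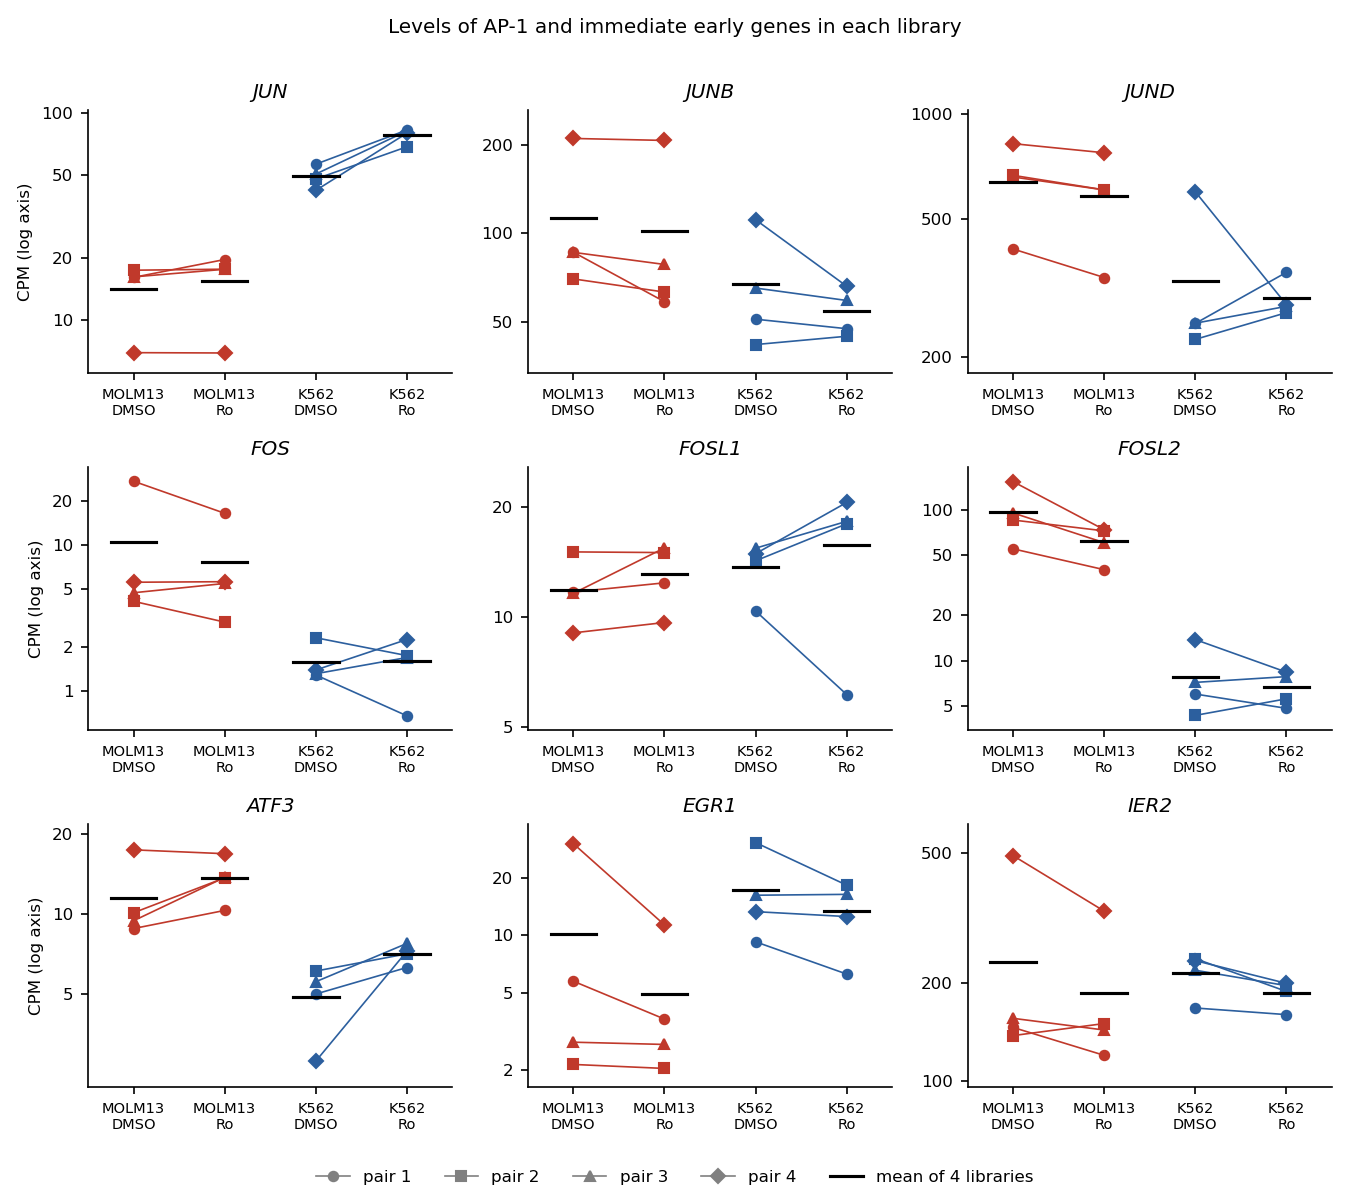
Levels in CPM (log axis) of the 9 detected genes in each of the 16 libraries, by line and treatment; lines join the DMSO and Ro libraries of a pair and black bars are means of 4 libraries. All 4 K562 Ro libraries lie above all 4 DMSO libraries for JUN and for ATF3, and MOLM13 pair 4 (diamonds) stands apart for JUN, JUNB, EGR1 and IER2.

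The untreated lines were compared to describe how these genes stood before any Ro was given. Of the 9 genes, 5 passed the threshold (edgeR's quasi-likelihood test, p adjusted by Benjamini-Hochberg over 15268 genes), where 41.3% of all genes were called. FOSL2, FOS, ATF3 and JUND were higher in MOLM13 and JUN was higher in K562. Among all genes 21.1% were called higher in MOLM13 and 20.3% lower. In DESeq2 5 of 9 passed, where 44.3% of genes were called. The levels were known when the genes were chosen, so nothing is read from these counts.

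The largest of these differences was in FOSL2, a Fos protein of sustained AP-1. Its level was 55.2, 85.6, 95.4 and 154 CPM in MOLM13 DMSO libraries 1 to 4 and 6.03, 4.36, 7.21 and 13.8 in those of K562. The highest K562 library was far below the lowest MOLM13 library, and the fitted level was 12.5-fold higher in MOLM13, a log2 difference of 3.65 (SE 0.39) in edgeR.

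FOS was 6.83-fold higher in MOLM13. Its MOLM13 DMSO libraries held 27.2, 4.12, 4.71 and 5.56 CPM and its K562 DMSO libraries 1.30, 2.32, 1.32 and 1.40. The groups did not overlap, and library 1 of MOLM13 was far above the other 3. The log2 difference was 2.77 (SE 0.61) in edgeR, and it was 1.74 without that library.

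ATF3 was 2.37-fold higher in MOLM13, with 8.81, 10.1, 9.42 and 17.4 CPM against 5.00, 6.10, 5.57 and 2.80 in K562. The lowest MOLM13 library was above the highest K562 library. The log2 difference was 1.24 (SE 0.30) in edgeR. JUND was 1.94-fold higher in MOLM13, 0.96 (SE 0.33) on the log2 scale. Its K562 libraries held 249.6, 225, 250.1 and 598 CPM, and the last of these lay inside the MOLM13 range. JUND was not past the threshold without any 1 of MOLM13 DMSO libraries 2, 3 and 4 or K562 DMSO libraries 1, 2 and 3, with the log2 difference between 0.82 and 1.41 over all 8 such fits.

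JUN, the prototype AP-1 subunit, went the other way and was 3.51-fold higher in K562. It had 56.6, 47.9, 50.7 and 42.2 CPM in K562 DMSO libraries 1 to 4 and 16.0, 17.4, 16.1 and 6.93 in those of MOLM13. All 4 K562 libraries were above all 4 MOLM13 libraries, a log2 difference of -1.81 (SE 0.27), MOLM13 minus K562. The groups did not overlap for JUN, FOS, FOSL2 and ATF3, 4 of 9 genes, where 39.4% of all genes were separated in this way and 20.5% were with MOLM13 higher.

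The other 4 genes overlapped between the lines. The log2 difference, MOLM13 minus K562, was 0.76 (SE 0.38) for JUNB, a Jun subunit of AP-1, and -0.20 (SE 0.23) for FOSL1. It was -0.68 (SE 0.69) for EGR1 and 0.13 (SE 0.38) for IER2. These last values turned on MOLM13 DMSO library 4: without it edgeR gave -2.32 for EGR1 and -0.53 for IER2, both lower in MOLM13 and past the threshold. JUNB moved with either library 4: it was at 0.27, not past the threshold, without MOLM13 DMSO library 4. Without K562 DMSO library 4 it was at 1.11, past the threshold.

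**Figure D2:**
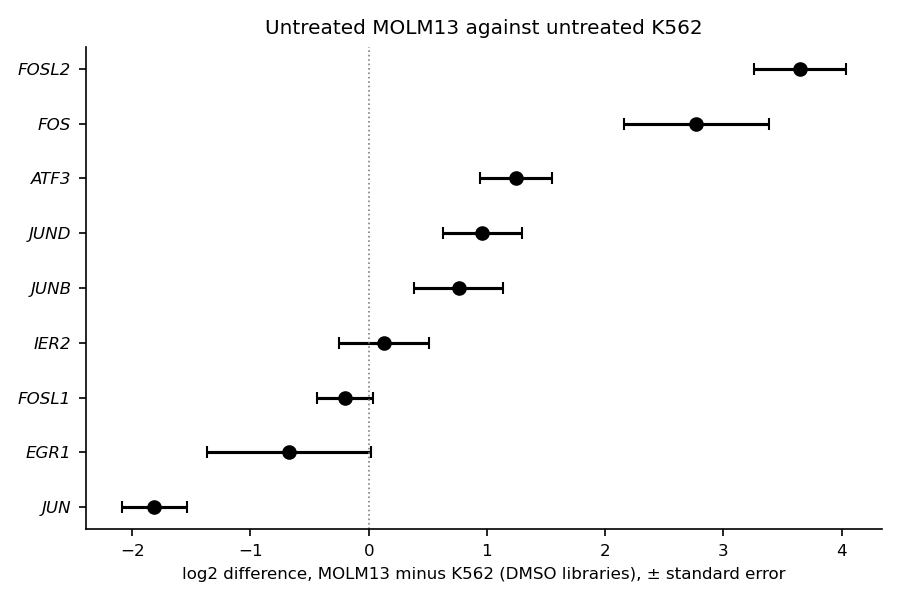
Log2 difference between untreated lines (MOLM13 minus K562) for the 9 genes, with bars of 1 SE from edgeR. FOSL2 at 3.65 and JUN at -1.81 lie at the ends.

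Summed CPM show which subunit made up most of each family's transcripts. The Jun genes summed to 767 ± 216 CPM in MOLM13 DMSO and 447 ± 204 in K562 DMSO (SD, n = 4 here and below). JUND made up 83.5 ± 4.67% of that sum in MOLM13 and 72.3 ± 4.99% in K562. JUN made up 2.06 ± 1.03% in MOLM13 (0.667% to 3.14%) and 12.6 ± 4.75% in K562 (5.62% to 15.8%), with no library in common.

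The detected Fos genes summed to 119.7 ± 33.2 CPM in MOLM13 DMSO and 23.2 ± 5.29 in K562 DMSO. FOSL2 led in MOLM13 with 79.3 ± 14.3% of the sum, and FOSL1 led in K562 with 60.1 ± 8.12%. FOS itself made up 10.1 ± 12.5% in MOLM13, where library 1 alone reached 28.9% and the others lay between 3.30% and 4.22%, and 7.15 ± 2.86% in K562. In MOLM13 the Jun sum was 6.41 ± 0.770 times the Fos sum, and in K562 it was 18.9 ± 4.69 times. Fos proteins cannot pair with themselves and need a Jun partner; the sums are of transcripts and do not give the proteins.

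**Figure D3:**
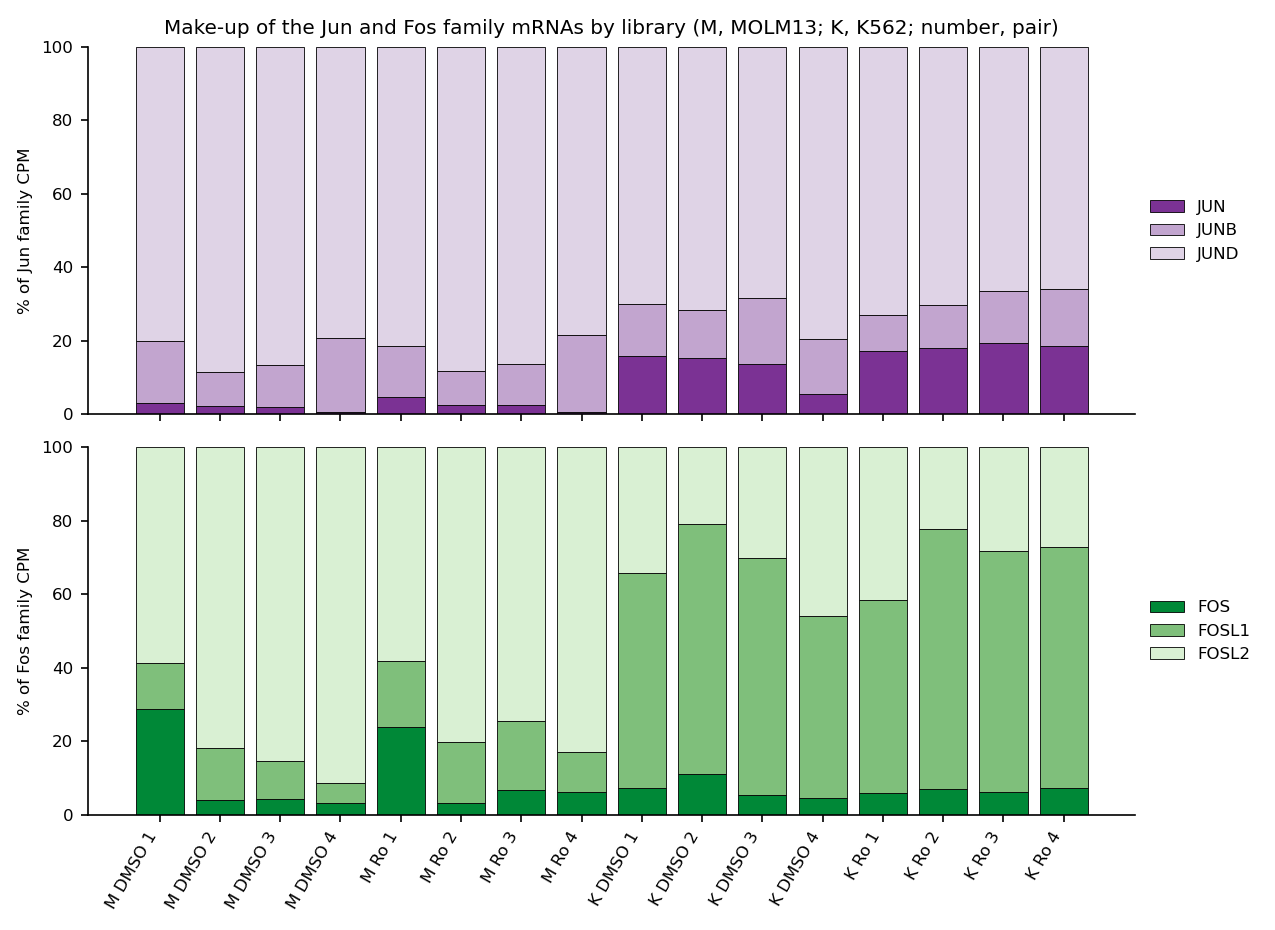
Share of each gene in the summed CPM of the Jun genes and of the detected Fos genes, in percent, as stacked bars for each of the 16 libraries. JUND fills most of the Jun bar in both lines, FOSL2 most of the Fos bar in MOLM13, and FOSL1 most of it in 7 of the 8 K562 libraries, with 49.4% in the DMSO library of pair 4.

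Ro was compared with DMSO in MOLM13 to ask how these genes stood after 4 h. Without regard to pairs, 0 of the 9 genes and 0 of 15031 genes tested passed in edgeR (0%), with 175 genes and 0 members at an unadjusted p under 0.05, and DESeq2 called 1 gene and 0 members (0.00665%). With the pair number as a block, edgeR called EGR1 and FOSL2, both lower with Ro, where 2.11% of all genes were called, 1.17% lower and 0.938% higher. DESeq2 with the block called FOSL2 alone of the 9, where 1.77% of all genes were called. Since the genes were chosen with these changes known, nothing is read from that count. Differences of single pairs are given first, as log2 of Ro over DMSO with a prior count of 2.

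FOSL2 was lower with Ro in 4 of 4 MOLM13 pairs. Its level was 55.2, 85.6, 95.4 and 154 CPM in DMSO libraries 1 to 4 and 40.2, 72.6, 60.6 and 73.9 in Ro libraries 1 to 4. The Ro libraries lay closer together than the DMSO libraries, and 3 of the 4 were inside the DMSO range. The pair differences were -0.46, -0.24, -0.65 and -1.06, and the fitted log2 difference was -0.64 (SE 0.29) without the block and -0.60 (SE 0.10) with it.

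EGR1, a zinc finger factor and the standard readout of ERK signalling, was also lower in 4 of 4 pairs, but by very unequal amounts. It had 5.78, 2.13, 2.78 and 30.1 CPM in DMSO libraries 1 to 4 and 3.67, 2.03, 2.70 and 11.4 in Ro libraries. Pairs 2 and 3 were nearly level, and the DMSO library of pair 4 was far above the other 3. The pair differences were -0.64, -0.07, -0.04 and -1.40. The fitted difference was -1.05 (SE 0.84) without the block and -0.78 (SE 0.19) with it. Without the block it was 0.59 when DMSO library 4 was left out and -1.89 when Ro library 4 was left out. Each of these fits kept the other library of pair 4, which was also the highest of its group.

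JUNB and JUND were lower in 4 of 4 pairs as well, by smaller amounts. JUNB had 86.4, 70.0, 86.2 and 211 CPM with DMSO and 58.6, 63.2, 78.4 and 207 with Ro, pair differences of -0.56, -0.15, -0.14 and -0.02. JUND had 339, 605, 605 and 774 CPM with Ro, pair differences of -0.27, -0.14, -0.12 and -0.09. For both genes the differences within pairs were small beside the spread among DMSO libraries. With EGR1 and FOSL2 this made 4 of 9 genes lower in every pair, where 14.9% of all genes were lower in every MOLM13 pair.

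FOS and IER2 differed in sign among the MOLM13 pairs. FOS had 16.4, 2.97, 5.45 and 5.61 CPM with Ro, and its pair differences were -0.72, -0.46, 0.21 and 0.01. Pair 1, high with DMSO, was also the highest with Ro. IER2, a nuclear protein induced with FOS, had 146, 138, 156 and 490.0 CPM with DMSO and 120.0, 150.1, 143 and 331 with Ro, pair differences of -0.28, 0.12, -0.12 and -0.56. Library 4 was the highest under both treatments.

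JUN, FOSL1 and ATF3 had positive fitted differences in MOLM13. JUN had 19.6, 17.6, 17.5 and 6.91 CPM with Ro and pair differences of 0.29, 0.02, 0.12 and -0.01, a fitted 0.15 (SE 0.37). FOSL1 had 11.7, 15.1, 11.6 and 9.05 CPM with DMSO and 12.4, 15.0, 15.4 and 9.66 with Ro, a fitted 0.16 (SE 0.21). ATF3 had 10.3, 13.6, 13.7 and 16.8 CPM with Ro. Its pair differences were 0.22, 0.43, 0.54 and -0.05, with 3 of 4 pairs higher, and a fitted difference of 0.26 (SE 0.24). For all 9 genes the Ro libraries overlapped the DMSO libraries in MOLM13, where 1.35% of all genes did not overlap.

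**Figure D4:**
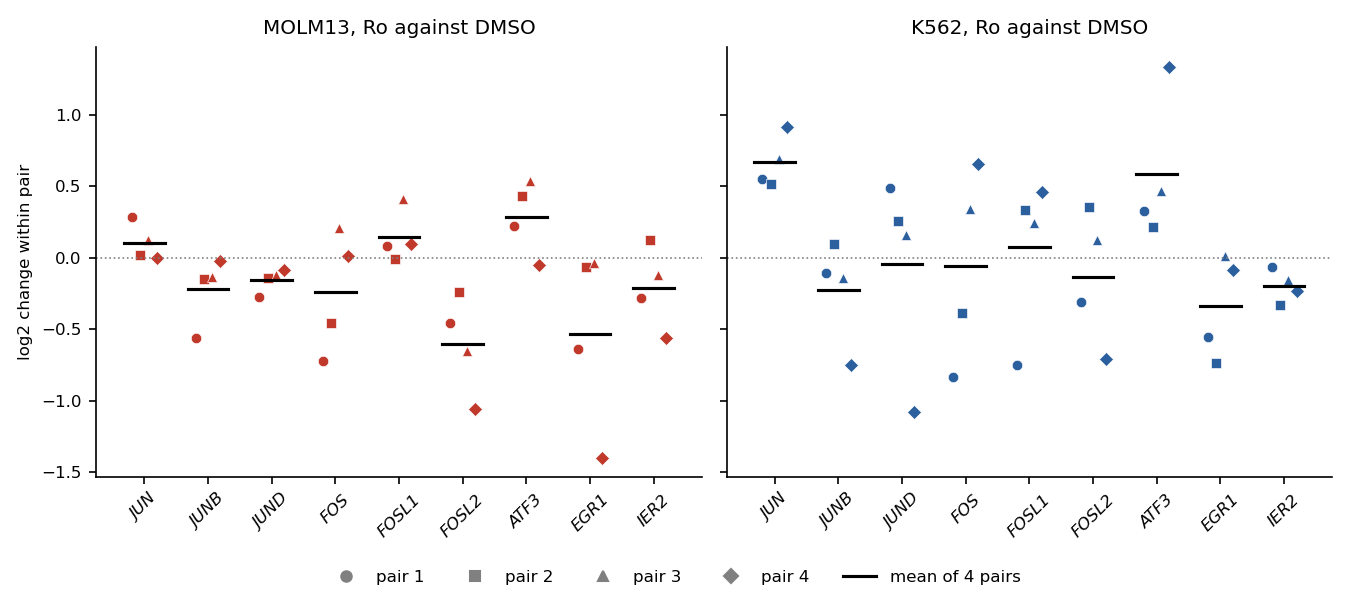
Log2 of Ro over DMSO (prior count 2) in each of the 4 pairs of each line for the 9 genes. JUN and ATF3 lie above 0 in all 4 K562 pairs, and FOSL2, EGR1, JUNB and JUND below 0 in all 4 MOLM13 pairs.

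In K562, JUN and ATF3 were higher in every Ro library than in any DMSO library, 2 of 9 genes, where 0.584% of all genes were separated in that direction, 0.657% in the other and 1.24% in either. Both were also higher with Ro in 4 of 4 pairs, as 6.84% of all genes were. Neither passed the adjusted threshold: edgeR called 0 of 15227 genes with or without the block (0%), with 187 genes and 2 members at an unadjusted p under 0.05 without it. DESeq2 called 0 genes without the block and 2 genes with it (0.0131%), 0 of them members. A fit of pairs 1 and 3 only, with the block, picked after the data were seen because both DMSO libraries are deep, called 1 member of 8 tested (JUN, 0.61, SE 0.09), where 3.06% of 13667 genes were called and 1.43% were called higher. The Ro values were known when the genes were chosen, so nothing is read from any of these counts.

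JUN had 56.6, 47.9, 50.7 and 42.2 CPM in K562 DMSO libraries 1 to 4 and 82.7, 68.6, 81.9 and 79.9 in Ro libraries. The highest DMSO library was below the lowest Ro library. The pair differences were 0.55, 0.52, 0.69 and 0.92, the fitted level was 1.59-fold higher with Ro, and the fitted log2 difference was 0.67 (SE 0.15). Leaving out any 1 of the 8 libraries gave between 0.60 and 0.70. JUN made up 18.3 ± 0.952% of the Jun sum with Ro (17.2% to 19.5%), above all 4 DMSO libraries.

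ATF3 had 5.00, 6.10, 5.57 and 2.80 CPM with DMSO and 6.29, 7.08, 7.75 and 7.24 with Ro. The groups were close, with the highest DMSO library at 6.10 and the lowest Ro library at 6.29. The pair differences were 0.32, 0.21, 0.47 and 1.34, the last from the shallow DMSO library of pair 4, where ATF3 had 16 counts. The fitted level was 1.46-fold higher with Ro, 0.55 (SE 0.24) on the log2 scale. Without a library it lay between 0.39 and 0.64.

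The EGR1 and IER2 values in K562 were lower or nearly level with Ro. IER2 had 167, 237, 219 and 234 CPM with DMSO and 159.9, 188, 196 and 199 with Ro. It was lower in 4 of 4 pairs, where 4.65% of all genes were lower in every K562 pair, with a fitted difference of -0.20 (SE 0.18). EGR1 had 9.27, 30.5, 16.2 and 13.3 CPM with DMSO and 6.29, 18.3, 16.4 and 12.6 with Ro. Its pair differences were -0.55, -0.73, 0.01 and -0.08, and the fitted -0.31 (SE 0.38) became 0.06 without DMSO library 2, the shallowest of the 16.

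The Fos genes differed in sign among the K562 pairs. FOS had 0.682, 1.76, 1.70 and 2.26 CPM with Ro and pair differences of -0.83, -0.38, 0.34 and 0.65. FOSL1 had 10.4, 14.2, 15.4 and 14.9 CPM with DMSO and 6.14, 18.0, 18.3 and 20.6 with Ro, lower in pair 1 and higher in the other 3. FOSL2 had 4.85, 5.61, 7.87 and 8.42 CPM with Ro and pair differences of -0.31, 0.36, 0.12 and -0.71. The Fos sum was 24.0 ± 8.57 CPM with Ro in K562 (11.7 to 31.2), overlapping the DMSO libraries (17.7 to 30.1). In MOLM13 it was 82.5 ± 9.87 CPM with Ro (69.0 to 90.5), below every DMSO library (94.0 to 168). FOSL2 made up 73.9 ± 11.0% of the MOLM13 Ro sum. On its own each detected Fos gene overlapped between the treatments in MOLM13, and FOSL1 had a positive fitted difference there. The difference in these sums was not tested.

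JUND and JUNB in K562 turned on DMSO library 4, which is among the shallow libraries. JUND had 249.6, 225, 250.1 and 598 CPM with DMSO and 350.3, 268, 279.6 and 283 with Ro. Pairs 1, 2 and 3 were higher with Ro, by 0.49, 0.26 and 0.16, and pair 4 was lower, at -1.08. The fitted -0.16 (SE 0.30) became 0.30 without that library. JUNB had 51.1, 41.8, 65.2 and 111 CPM with DMSO and 47.4, 44.7, 59.1 and 66.1 with Ro, a fitted -0.31 (SE 0.28) that became 0.04 without it. These fits had no block and kept the Ro library of pair 4. The part of library depth in these values was not tested.

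The response to Ro was also compared between the lines, as the log2 difference of MOLM13 minus that of K562 in a fit of all 16 libraries. edgeR called 0 of 16224 genes with or without the block (0%), with 218 genes and 0 members at an unadjusted p under 0.05 without it. DESeq2 called 3 genes with the block (0.0185%), 0 of them members. JUN had -0.53 (SE 0.39) without the block and -0.57 (SE 0.15) with it, from 0.12 (SE 0.10) in MOLM13 and 0.68 (SE 0.13) in K562. ATF3, higher in both lines by the fit, differed by -0.30 (SE 0.35). FOSL2 differed by -0.45 (SE 0.45) and EGR1 by -0.75 (SE 0.95). The values of both lines are set side by side, and nothing is read from the counts.

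MOLM13 DMSO library 4 carried the highest level of 6 of the 9 genes among the 4 DMSO libraries, a feature noticed after the data were seen. It was also the highest of 4 for 38.3% of all genes. Against the mean log2 level of libraries 1 to 3 it was higher by 3.17 for EGR1, 1.74 for IER2, 1.39 for JUNB, 1.00 for FOSL2 and 0.88 for ATF3, and lower by a log2 difference of -1.24 for JUN. The median of the 9 genes was 0.88, beside -0.01 for all 15031 genes, and 4 of 9 were over 1 above the others, beside 6.05% of all genes. This library held 39978791 counts and was the deepest in MOLM13.

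Other lists of the pathway ranged widely in that library. Of 26 other immediate early genes tested, 14 were at their highest there (median 0.23), beside 38.3% of all genes, and of 17 feedback genes of the MAP kinase pathway 8 were (median 0.14). The 26 genes ran from -1.06 for PLK2, a stress-induced kinase, to 1.63 for ZFP36L1, which codes for a protein that destabilizes mRNAs. The 17 feedback genes ran from -1.11 for SPRED2, an inhibitor of the pathway, to 1.46 for ETV5, an ERK-induced factor. Of 10 stress genes known to act with ATF3, 9 were highest in library 4 (median 2.22), a larger share and a larger median than those of the 9 members. In the Ro library of the same pair, the same 6 genes (EGR1, IER2, JUNB, JUND, FOSL2 and ATF3) were again the highest of 4 and JUN again the lowest. FOSL2 was nearly level there, at 73.9 CPM beside 72.6 in Ro library 2. The share of all genes highest in that Ro library was not counted. What sets this pair apart is not given in the labels and was not tested.

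**Figure D5:**
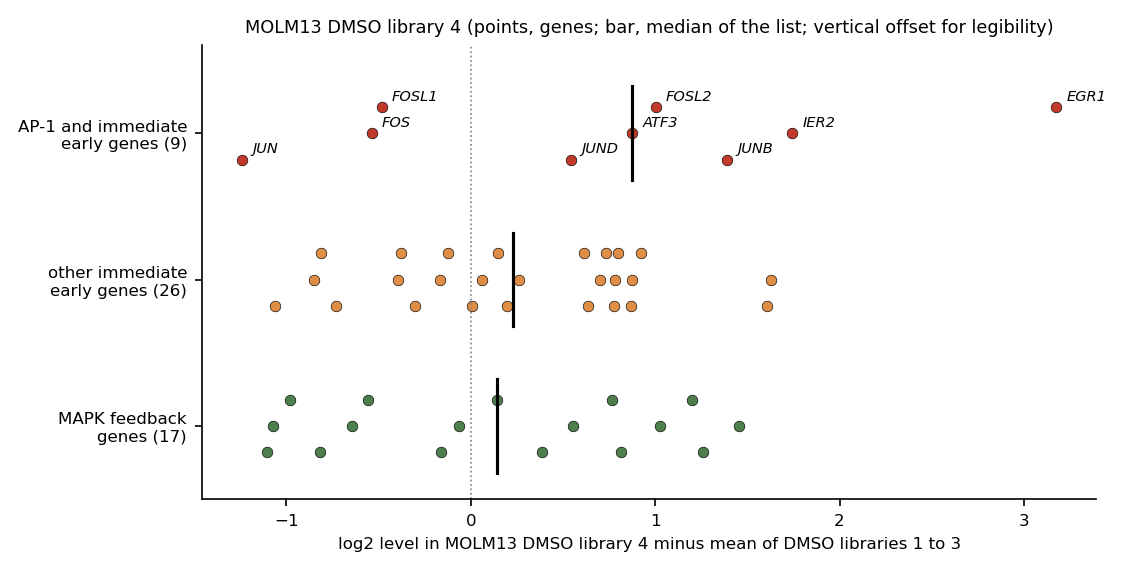
Log2 level in MOLM13 DMSO library 4 minus the mean of DMSO libraries 1 to 3 for 9 AP-1 and immediate early genes, 26 other immediate early genes and 17 feedback genes of the MAP kinase pathway; each point is a gene and the bar is the median of the list. EGR1 lies at 3.17 and JUN at -1.24.

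Lists of related genes, chosen with earlier results of these data known, were followed under Ro to place these genes in their pathway. They were other bZIP partners of AP-1 (9 tested in each line), other immediate early genes (26 in MOLM13, 24 in K562), feedback genes of the MAP kinase pathway (17 and 13), kinases and serum response factor partners upstream (26 and 27), textbook AP-1 targets (10 and 9) and stress partners of ATF3 (10 and 10). Without the block, edgeR and DESeq2 called 0 of these genes in either line. With the block, edgeR called 6 in MOLM13, 4 higher and 2 lower, and 0 in K562, beside 2.11% of all genes in MOLM13. The higher calls depended on the pairs used: in place of 4 calls there were 1, 0, 0 and 3 without pair 1, 2, 3 and 4 in turn, and DESeq2 with the block made 1. The lower calls numbered 1, 3, 1 and 2 without those pairs and 2 in DESeq2 with the block. Because of how the lists were chosen, these calls and the adjusted p-values given for them below are a description.

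Of the immediate early genes, 2 of 26 were called higher in MOLM13 in the edgeR fit with the block and 0 lower. PLK2 was at 3.16 ± 1.45 CPM with DMSO and 4.98 ± 2.12 with Ro (log2 difference 0.75, SE 0.17, edgeR adjusted p = 0.0252). IER5L was at 39.8 ± 7.06 and 48.7 ± 4.35 CPM (0.31, SE 0.08, edgeR adjusted p = 0.0405). The median of the 26 genes was 0.12 without the block, beside 0.00 for all genes.

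DUSP4, a nuclear phosphatase of MAP kinases, was the 1 of 17 feedback genes called higher, from 10.6 ± 3.65 to 14.9 ± 5.10 CPM (0.48, SE 0.12, edgeR adjusted p = 0.0317, with the block). MAP2K1, the kinase that activates ERK, was the 1 of 26 upstream genes called higher, from 26.5 ± 11.5 to 33.0 ± 14.5 CPM (0.33, SE 0.09, edgeR adjusted p = 0.0465, with the block). Each of these 4 genes was higher in 4 of 4 MOLM13 pairs, as 10.2% of all genes were. They were picked by the fit with the block, so this adds no support. DUSP4 was a minor transcript in K562, at 0.680 CPM with DMSO.

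VIM, which codes for vimentin, was the 1 of 10 textbook AP-1 targets called lower in MOLM13, from 128 ± 62.7 to 102 ± 50.8 CPM (-0.31, SE 0.07, edgeR adjusted p = 0.0218, with the block). XBP1, a factor of the unfolded protein response, was the 1 of 10 ATF3 stress partners called lower, from 225 ± 201 to 142 ± 115 CPM (-0.59, SE 0.08, edgeR adjusted p = 1.05e-04, with the block). Both were lower in 4 of 4 MOLM13 pairs, as 14.9% of all genes were. Their spread over libraries was far larger than the differences within pairs. The median of the 10 stress partners in MOLM13 was -0.14 without the block and 0.03 with it. In K562 all 10 had a positive fitted difference without the block and 8 of 10 with it. The median without the block was 0.10, beside 0.02 for all genes. Mean levels ran from nearly equal for XBP1 (57.3 CPM with DMSO, 57.0 with Ro) to higher with Ro for CEBPB (32.4 and 41.1). No stress partner was called in either fit, and the share of all genes with a positive difference was not counted.

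The genes whose log2 difference by pair was most like that of 4 members are named as a description over the 8 pairs of both lines, among 10356 genes, by Pearson r. Pairs of 1 line share that line, and 2 of the K562 points rest on the shallow DMSO libraries. The highest r of so many genes over 8 points is large by selection alone, and its chance level was not computed. For JUN they were MARCH7 (0.967), ZNF92 (0.964) and ECD (0.953). For ATF3 they were NOL9 (0.992), ZNF440 (0.979) and CELF1 (0.976). For EGR1 they were TBC1D20 (0.937), NBPF1 (0.934) and IFT122 (0.918), and for FOS NUTM2B-AS1 (0.955), ANKRD10 (0.949) and FAM120B (0.939). NBPF1 was named from RefSeq by its Entrez identifier and belongs to a family of near-identical copies, so its counts are uncertain. None of the 10 genes described here was among these 12. With so few genes named of 10356, that says little about whether the members moved together.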

How the data were processed

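Total RNA of both lines was read with a 3′ tag kit (QuantSeq FWD). The authors deposited whole-number counts of reads per gene, without normalization, for 25221 Entrez genes, of which 1425 carry no symbol. Per the submitters' processing notes the tools were Trim Galore, STAR 2.5.3a and SAMtools 1.5 and the build hg38. The counting program and annotation are not given in the sources used here, so reads shared by similar or overlapping genes are uncertain. 0 columns lacked a sample. Coordinates and promoters are from RefSeq for GRCh38.p14.

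Groups and pair numbers came from the sample titles. Counts were fitted with edgeR 4.0.16 in R 4.3.3 (TMM, quasi-likelihood F test) on genes reaching 10 counts in 4 or more of the libraries fitted, with Benjamini-Hochberg adjustment over all of them and a threshold of 0.05. The block is the pair number. The SE given with an edgeR difference was derived from the test, as the absolute log2 difference divided by the square root of F. Deviations from the group mean correlated, for libraries with 1 number, at between 0.384 and 0.831 in MOLM13 and between 0.110 and 0.417 in K562. For libraries with different numbers r lay between -0.618 and 0.356 in MOLM13 and between -0.262 and 0.187 in K562. Same-numbered libraries were thus more alike without overlap in MOLM13, and in K562 on average only (mean r 0.281 against -0.093). What a pair shares is not given, and p-values measure the spread between these libraries, which may be technical. No libraries of a group agreed within sampling noise (lowest chi-square over its degrees of freedom 10.1). The spread between libraries thus exceeded counting error, and the smallest library held 3143129 counts.

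Alternatives were the block, DESeq2 1.42.0, its size factors, no filter, a minimum of 50 counts, and leaving out each library or pair. A Ro fit without a library had no block and kept the other library of its pair. K562 pairs 1 and 3 alone were added after the data were seen. The edgeR and DESeq2 fits were tested on simulated data. The members and lists were chosen with earlier results of these data known. The genes named were the members, up to 4 genes per list, line and direction past the threshold (in the fit with the block where the other called none), and the 3 genes most like each of EGR1, FOS, JUN and ATF3 (mean of at least 5 CPM). The genes at the ends of the lists in MOLM13 DMSO library 4 were chosen after their values were seen. Tables used pandas 2.3.3 and scipy 1.17.1 under Python 3.11.15.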

Additional observations from a re-analysis of the deposited data

Results flagged for a closer look

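Within groups of 4 libraries, a single library stood apart from the other 3 by Dixon's ratio at the 95% level in 11 of 36 tests of a gene in a group. Chance gives about 1 in 20, and the tests share libraries, so the flags are not independent. The share of all genes flagged by this rule was not counted, so nothing about these genes is read from the number. MOLM13 DMSO library 4 was the highest of 4 for 38.3% of all genes.

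Of the 11, 9 came from MOLM13, and 8 of these from pair 4. JUN was lowest there, at 6.93 CPM with DMSO and 6.91 with Ro. JUNB was highest there, at 211 CPM with DMSO and 207 with Ro, and so was IER2, at 490.0 and 331 CPM. ATF3 at 17.4 CPM and EGR1 at 30.1 CPM stood apart with DMSO.

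FOS stood apart in MOLM13 DMSO library 1, at 27.2 CPM. In K562 DMSO, JUND stood apart in library 4, at 598 CPM, and FOS in library 2, at 2.32 CPM, which rested on 8 counts.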

How the results depend on the processing

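In MOLM13 the number of members past the adjusted threshold was 0 without the block. With the replicate block it was 2 (EGR1 and FOSL2), with the block and DESeq2 size factors 2, with DESeq2 and the block 1 (FOSL2), and with the block and a pair left out between 1 and 2. EGR1 was not called without pair 1 or without pair 4. These calls rest on Ro differences known when the genes were chosen, and nothing is read from them. For the other pathway genes in MOLM13 the number was 0 without the block, 6 with it, 5 with the block and DESeq2 size factors, 3 with DESeq2 and the block, and between 1 and 5 with a pair left out. The 4 higher calls among the 6 became 1, 0, 0 and 3 without pair 1, 2, 3 and 4, and 1 with DESeq2 and the block. In K562 the fit of pairs 1 and 3 with the block, added after the data were seen, gave 1 member (JUN) and 7 other pathway genes in place of 0. The other alternatives listed for these counts gave 105 values labelled as unchanged, by a limit of 1.5 times. Most were 0 beside a main value of 0, in fits that called few or no genes, so they could hardly move. Between the untreated lines the number of members ran from 4 to 6 and the genes changed. JUND dropped out of several of these fits, and EGR1 and IER2 entered without MOLM13 DMSO library 4. The block changed no call of a member in K562 or in the difference between lines. Whether untreated IER2 was higher in MOLM13 depended on DMSO library 4: the log2 difference was 0.13 with it and -0.53 without it (between -0.53 and 0.32 with any 1 library left out), and the cause was not tested. FOS in K562 rested on as few as 8 counts a library.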
